A study of Daucus carota with 6 samples.

Results

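Phenylalanine ammonia-lyase (PAL), trans-cinnamate 4-monooxygenase (C4H, also called cinnamate 4-hydroxylase) and 4-coumarate-CoA ligase (4CL) catalyse the entry steps of phenylpropanoid synthesis. The 7 genes described here are 3 PAL, 2 C4H and 2 4CL genes of carrot (Daucus carota), of 35073 genes in the table. They were chosen by the difference of their FPKM values between the 2 groups compared below, so this difference between the groups is given as a description, without a test. RNA-seq was done on fleshy roots of 2 groups with 3 samples each. The BC group comes from betanin-transgenic carrots, stably transformed with CYP76AD1S, cDOPA5GTS and DODA1S, genes for making the red pigment betanin, which accumulates in all of the plant. The WT group comes from non-transgenic carrots. The labels give neither the age of the roots, nor the promoters of the introduced genes, nor how many transgenic lines or separate plants the samples stand for.

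PAL removes the amino group of phenylalanine and yields cinnamate. C4H, a membrane-bound cytochrome P450 that takes electrons from a P450 reductase, adds a hydroxyl group to make 4-coumarate. 4CL joins 4-coumarate to coenzyme A, and the thioester is the common precursor of lignin monomers, flavonoids, and the hydroxycinnamate esters that carrot roots store. In many plants these enzymes are encoded by small gene families whose members respond to wounding, pathogens and light.

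Values are FPKM, read fragments corrected for the length of the transcript and the size of the library, and group values are mean ± SD (n = 3). Values above 0 were listed for 24137 to 24257 genes in WT and 24954 to 25274 genes in BC. Of 21033 genes tested with limma (at least 1 FPKM in at least 3 samples), 46.4% passed a Benjamini-Hochberg adjusted p of 0.05, 22.8% as higher and 23.5% as lower in BC. Across genes, on the log2(FPKM + 1) scale, WT samples correlated with each other at 0.974 to 0.988, BC samples with each other at 0.953 to 0.979, and samples of different groups at 0.826 to 0.853. Of 10 genes listed as storage root markers (phytoene synthases, sucrose synthases and soluble beta-fructofuranosidases) 9 were tested, with 4 higher and 2 lower in BC by limma. The most abundant, phytoene synthase 2 (DCAR_010057.v1.0), which starts carotenoid synthesis, had a mean of 187 ± 24.5 FPKM in the WT group, against 403 ± 43.04 FPKM in BC. The lower genes were the beta-fructofuranosidase DCAR_014623.v1.0 (15.9 ± 3.61 to 6.53 ± 1.42 FPKM) and the sucrose synthase DCAR_024776.v1.0 (4.54 ± 1.89 to 1.74 ± 0.187 FPKM), the last not called without BC replicate 1 (limma, adjusted p = 0.0656). Markers of green tissue (25 genes for chlorophyll a-b binding proteins and the small subunit of Rubisco) summed to 2227 to 3568 FPKM in WT and 12133 to 13040 FPKM in BC. In whole roots, fewer cells of a type and less RNA per cell cannot be told apart.

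All 3 genes described as PAL were very low in WT roots and higher in every BC sample. The PAL gene DCAR_017697.v1.0 (described as phenylalanine ammonia-lyase 1) measured 0.27, 0.90 and 0.55 FPKM across WT replicates 1 to 3, against 12.42, 24.69 and 3.75 FPKM across BC replicates 1 to 3. The groups did not overlap, and the lowest BC sample was 4.17-fold above the highest WT sample. Its mean went from 0.573 ± 0.316 to 13.6 ± 10.5 FPKM, 23.8-fold apart, with a log2 fold change of 2.92 (SE 0.58) on the log2(FPKM + 1) scale. That scale understates the change of genes this low.

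The PAL gene DCAR_014989.v1.0 (phenylalanine ammonia-lyase 3) measured 0.42, 0.87 and 0.50 FPKM across WT replicates 1 to 3, against 8.88, 16.28 and 3.59 FPKM across BC replicates 1 to 3. Again BC replicate 2 was high and BC replicate 3 low, with the BC mean 16.1-fold above the WT mean and a log2 fold change of 2.54 (SE 0.46). The third PAL gene, DCAR_020833.v1.0, whose UniProt entry is carrot PAL1, measured 0.43, 0.67 and 0.66 FPKM across WT replicates 1 to 3, against 6.51, 11.31 and 1.97 FPKM across BC replicates 1 to 3. Its BC mean was 11.2-fold above the WT mean, and the lowest BC sample was 2.94-fold above the highest WT sample. All 3 PAL genes were under 1 FPKM in every WT sample and passed the filter on low values only through their BC values.

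**Figure D1:**
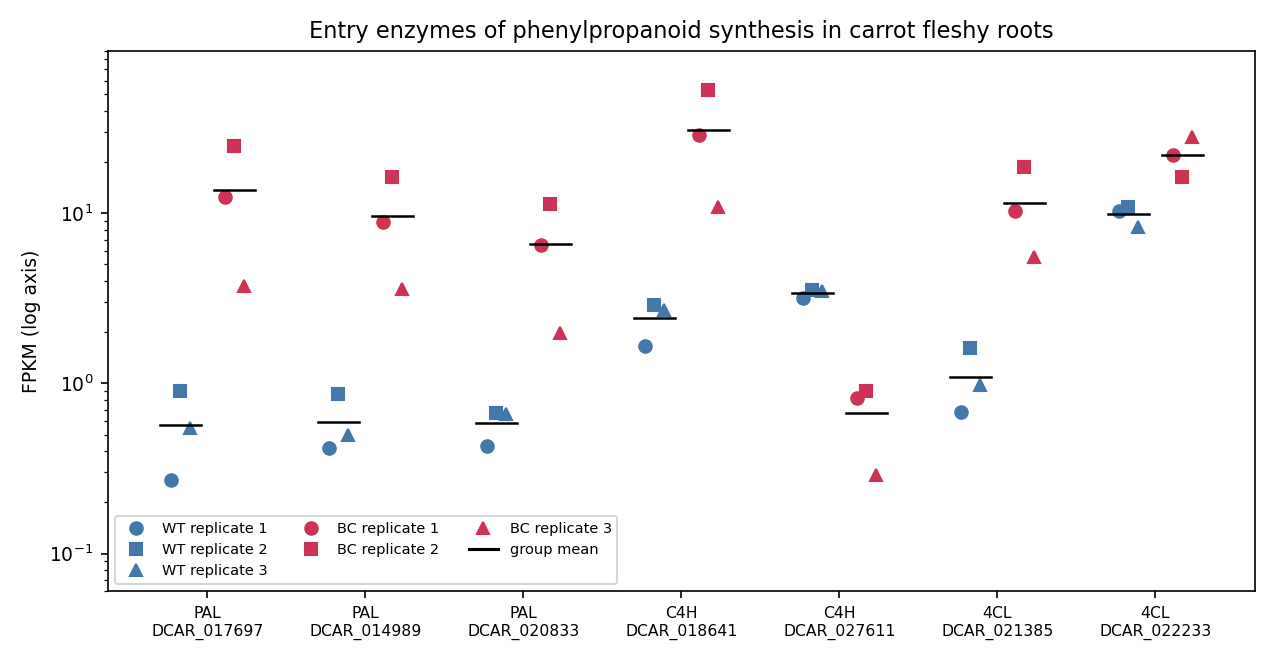
FPKM of the 7 genes (log axis) in each WT sample (blue) and each BC sample (red), with the marker shape giving the replicate and the black bar the group mean of 3 samples. The groups do not overlap for any of the 7 genes, DCAR_027611.v1.0 is the only one of the 7 that is lower in BC, and the BC samples lie further apart than the WT samples for most genes.

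The 2 C4H genes differed in opposite directions. DCAR_018641.v1.0 (trans-cinnamate 4-monooxygenase) measured 1.66, 2.90 and 2.70 FPKM across WT replicates 1 to 3, against 28.81, 52.81 and 10.81 FPKM across BC replicates 1 to 3. Every BC sample was above every WT sample, by at least 3.73-fold, and the ratio of the means was 12.7, with a log2 fold change of 2.98 (SE 0.52). DCAR_027611.v1.0, described as trans-cinnamate 4-monooxygenase-like, measured 3.16, 3.53 and 3.51 FPKM across WT replicates 1 to 3, against 0.82, 0.90 and 0.29 FPKM across BC replicates 1 to 3. It was the lower of the pair in BC and the higher of the pair in every WT sample, and its WT mean was 5.07-fold above its BC mean (log2 fold change -1.42, SE 0.19).

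The 2 gene models described as 4CL differed in size of change and in sample order, and it cannot be told from the table whether they are 2 genes, parts of 1 gene or a fused model. DCAR_021385.v1.0 measured 0.68, 1.61 and 0.98 FPKM across WT replicates 1 to 3, against 10.25, 18.58 and 5.54 FPKM across BC replicates 1 to 3, with the BC mean 10.5-fold above the WT mean (log2 fold change 2.46, SE 0.40). Its BC samples ranked as for the PAL genes. DCAR_022233.v1.0 measured 10.35, 10.87 and 8.33 FPKM across WT replicates 1 to 3, against 21.94, 16.34 and 27.89 FPKM across BC replicates 1 to 3, a ratio of means of 2.24 (log2 fold change 1.06, SE 0.21). Here BC replicate 3 was the highest and BC replicate 2 the lowest, only 1.503-fold above the highest WT sample. 

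The table assigns both 4CL genes the same RefSeq protein, 4-coumarate-CoA ligase 1, and both matched the RefSeq gene LOC108227923, so reads that fit both may have been divided between them, and their separate folds, shares and ratios are uncertain. The other 5 genes matched 5 different RefSeq genes, and no member lay next to another in RefSeq's order of protein-coding genes. For DCAR_022233.v1.0 the table also lists a second KEGG entry, subunit GAA1 of the GPI-anchor transamidase, an enzyme that attaches proteins to a membrane lipid anchor. The part of reads from such a transcript in its values was not tested. Summed over both 4CL genes, the level measured 11.03, 12.48 and 9.31 FPKM across WT replicates 1 to 3, against 32.19, 34.92 and 33.43 FPKM across BC replicates 1 to 3. The sum thus varied little among BC samples (33.5 ± 1.37 FPKM), although the first gene was 3.35-fold higher in BC replicate 2 than in BC replicate 3 and the second gene was lower there.

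The groups did not overlap for 7 of 7 genes, against 57.1% of all tested genes. This share follows from the choice of the genes and carries no further reading.

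Most members varied together among the BC samples. BC replicate 2 was highest, BC replicate 1 next and BC replicate 3 lowest for 6 of the 7 genes, an order found in 18.4% of all tested genes and in 29.3% of those called higher in BC. It held for the C4H gene that was lower in BC as well, and DCAR_022233.v1.0 was the exception. In WT the same 6 genes were highest in replicate 2, next in replicate 3 and lowest in replicate 1, an order found in 31.0% of tested genes, and both orders together were found in 2.96%. The 7 genes were not chosen at random, and genes that move together are not separate observations, so these shares only describe them.

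The distance between BC samples was large for 5 of the genes on the log2(FPKM + 1) scale. From BC replicate 3 to BC replicate 2 the level differed 6.58-fold for DCAR_017697.v1.0, 4.53-fold for DCAR_014989.v1.0, 5.74-fold for DCAR_020833.v1.0 and 4.89-fold for DCAR_018641.v1.0. On the log2(FPKM + 1) scale the SD among BC samples was 1.23 for DCAR_017697.v1.0, 0.96 for DCAR_014989.v1.0, 1.04 for DCAR_020833.v1.0, 1.10 for DCAR_018641.v1.0 and 0.79 for DCAR_021385.v1.0. The median SD over all tested genes was 0.175 in BC and 0.158 in WT. Between 1.46% and 4.17% of tested genes had an SD among BC samples at least as large as these 5. For DCAR_027611.v1.0 and DCAR_022233.v1.0 the SD was 0.306 and 0.369, and 23.8% and 17.6% of tested genes reached as much. This scale compresses the spread of values under 1 FPKM, where DCAR_027611.v1.0 lay in BC. From BC replicate 3 to BC replicate 2 its level differed 3.10-fold, against 3.35-fold for DCAR_021385.v1.0. Among WT samples the SD of the 7 genes ran from 0.0692 to 0.321. It is compressed there too, as DCAR_017697.v1.0 differed up to 3.33-fold between WT samples at an SD of 0.291.

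**Figure D2:**
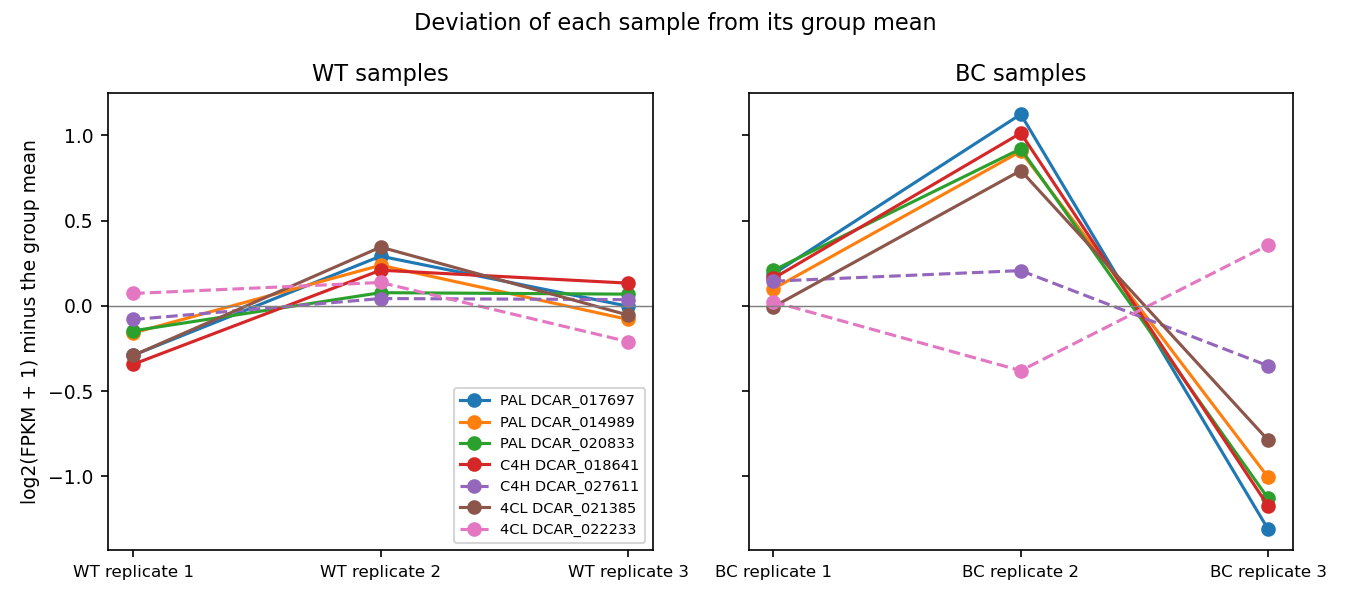
Difference of each sample from its group mean on the log2(FPKM + 1) scale, for WT samples (left) and BC samples (right), with a line joining the values of 1 gene. In BC the PAL genes, DCAR_018641.v1.0 and DCAR_021385.v1.0 are 0.79 to 1.12 above the mean in replicate 2 and 0.79 to 1.31 below it in replicate 3, while DCAR_022233.v1.0 (dashed) is 0.38 below the mean in replicate 2.

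The summed level of the 3 PAL genes measured 1.12, 2.44 and 1.71 FPKM across WT replicates 1 to 3, against 27.81, 52.28 and 9.31 FPKM across BC replicates 1 to 3. The C4H gene DCAR_018641.v1.0 followed this sum closely from sample to sample. Its ratio to the PAL sum was 1.04, 1.01 and 1.16 in the BC samples, among which the PAL sum itself ran from 9.31 to 52.28 FPKM, and 1.48, 1.19 and 1.58 in WT. The ratio was thus 1.07 ± 0.0808 in BC and 1.42 ± 0.203 in WT, the highest BC sample lying just under the lowest WT sample. For the 4CL gene DCAR_021385.v1.0 the ratio to the PAL sum was 0.369, 0.355 and 0.595 in BC and 0.607, 0.660 and 0.573 in WT, and the groups overlapped. For DCAR_022233.v1.0 it was 0.789, 0.313 and 2.996 in BC and 4.45 to 9.24 in WT.

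Copies of an enzyme also shared its level differently in the 2 groups. DCAR_017697.v1.0 held 24.1%, 36.9% and 32.2% of the PAL sum in WT and 44.7%, 47.2% and 40.3% in BC. DCAR_020833.v1.0 held 34.8% ± 6.37 in WT and 22.1% ± 1.19 in BC, and DCAR_014989.v1.0 held 34.1% ± 4.34 and 33.9% ± 4.08. The order DCAR_017697.v1.0, DCAR_014989.v1.0, DCAR_020833.v1.0 from high to low was seen in each BC sample, whereas the leading PAL copy differed between WT samples. In WT the shares rest on levels under 1 FPKM.

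For C4H the leading copy changed. DCAR_027611.v1.0 held 65.6%, 54.9% and 56.5% of the C4H sum in WT replicates 1 to 3 and 2.77%, 1.68% and 2.61% in BC replicates 1 to 3. The remainder, 97.2% to 98.3% in BC, came from DCAR_018641.v1.0. For 4CL the sum was taken over the 2 members and DCAR_025617.v1.0, described as 4-coumarate-CoA ligase 1-like. DCAR_022233.v1.0 held 91.8%, 86.6% and 88.5% of it in WT and 64.3%, 43.8% and 81.3% in BC. DCAR_021385.v1.0 held 9.76% ± 3.44 in WT and 31.98% ± 16.9 in BC, with its highest share, 49.8%, in BC replicate 2.

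**Figure D3:**
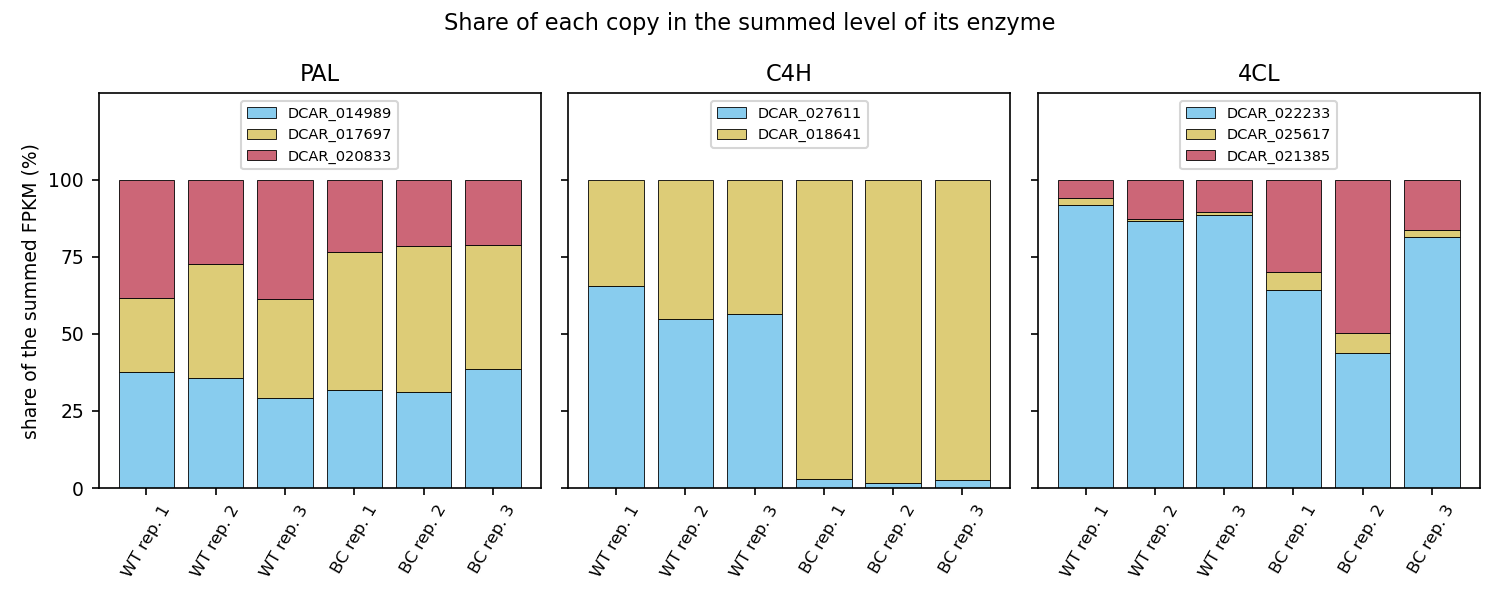
Share of each gene (percent) in the summed FPKM of PAL, C4H and 4CL, one stacked bar per sample. The C4H bars turn from 54.9% to 65.6% DCAR_027611.v1.0 in WT to at most 2.77% in BC, and the 4CL bars of the BC samples differ from each other more than those of the WT samples.

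No other gene was described as PAL or C4H. Of 10 genes described as 4CL, 8 were not members, and 7 of these carried a numbered 4CL-like name, a group of related acyl-activating enzymes whose substrates often differ from 4-coumarate. DCAR_025617.v1.0 measured 0.24, 0.07 and 0.10 FPKM across WT replicates 1 to 3, against 1.95, 2.41 and 0.88 FPKM across BC replicates 1 to 3, with no overlap and the same BC order as the PAL genes. It missed the minimum for testing, and DCAR_026457.v1.0 and DCAR_008197.v1.0 did too. Of the 5 others tested with limma 0 passed (1 at an unadjusted p under 0.05, by limma), which is also part of how the members were chosen. The most abundant was the 4CL-like 5 gene DCAR_009523.v1.0, with means of 12.6 ± 2.33 (WT) and 10.5 ± 1.29 FPKM (BC). Close to the threshold was another 4CL-like 5 gene, DCAR_013901.v1.0, at 2.50 ± 1.29 and 0.963 ± 0.333 FPKM (limma with Benjamini-Hochberg, adjusted p = 0.0602). The remaining ones were DCAR_002953.v1.0 (5.20 ± 0.751 and 4.82 ± 1.17 FPKM), DCAR_026214.v1.0 (2.37 ± 0.112 and 1.78 ± 0.452 FPKM) and DCAR_006391.v1.0 (2.86 ± 0.747 and 2.86 ± 0.770 FPKM).

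A further 2 genes carried the KEGG entry of 4CL but no such protein description. DCAR_006109.v1.0 measured 8.72, 8.22 and 9.01 FPKM across WT replicates 1 to 3, against 5.78, 5.76 and 4.94 FPKM across BC replicates 1 to 3 and passed the test as lower (log2 fold change -0.57, SE 0.12, limma with Benjamini-Hochberg, adjusted p = 0.00898). DCAR_006108.v1.0 was at 2.40 ± 0.620 and 1.02 ± 0.266 FPKM and also passed (adjusted p = 0.0212, limma). Leaving out WT replicate 1, WT replicate 3 or BC replicate 2 ended the call (limma, adjusted p = 0.0644, 0.0693 and 0.0567).

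Genes around the entry steps were taken from 6 lists of search words, 141 genes in all, of which 76 were tested. By limma 26 were higher and 9 lower in BC, that is 34.2% higher against 22.8% of all tested genes, and the median log2 fold change was 0.44, against -0.02 over all tested genes. The count of lower genes was 5 without WT replicate 3 and 5 without BC replicate 1. Of the 26 higher genes 16 had the BC order of the PAL genes (61.5%), against 29.3% of all genes called higher. The lists were chosen with earlier results of these data known, so these shares only describe the listed genes. Some higher genes passed the filter on low values only through BC, such as DCAR_017335.v1.0 (0.37, 0.45 and 0.33 FPKM in WT). Green tissue markers rose in 20 of 25 genes and fell in 2, and their part in these counts was not tested.

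**Figure D4:**
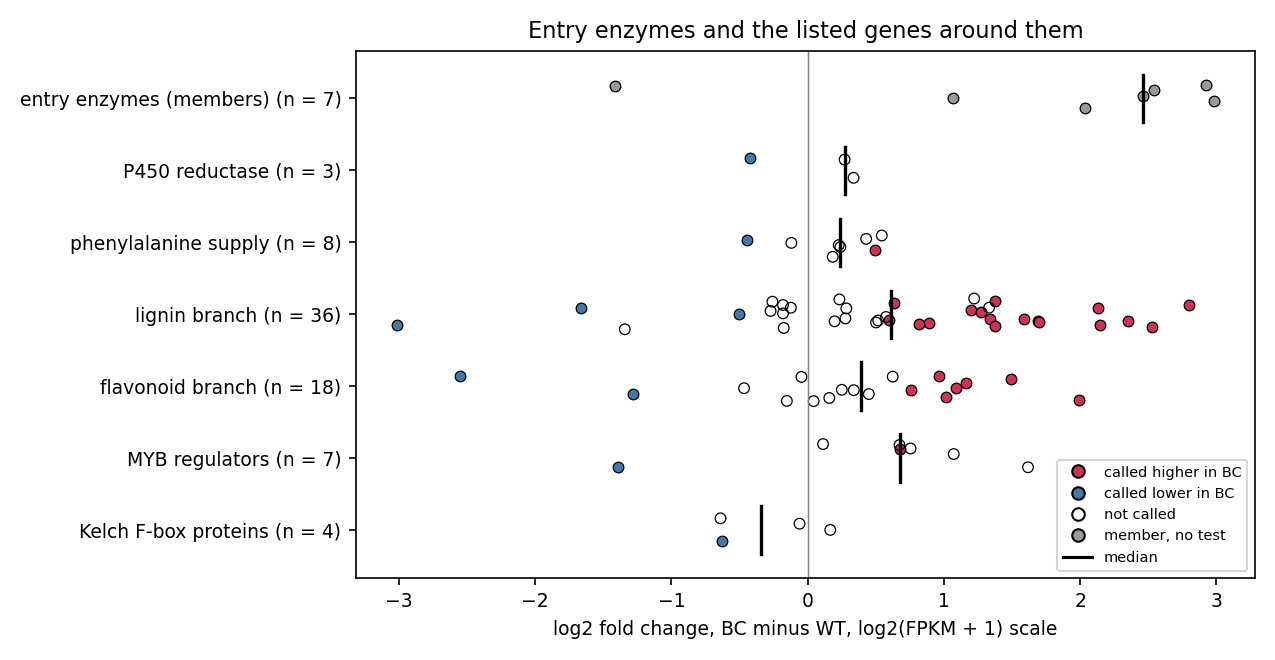
Log2 fold change, BC minus WT, on the log2(FPKM + 1) scale, for the 7 entry enzyme genes and for the tested genes of 6 lists, 1 point per gene, with the median as a bar. Listed genes are filled in colour where limma called them, and the 7 entry enzyme genes are grey because they have no test. The lignin branch shows the most called genes (17 higher, 3 lower of 36, against 22.8% higher and 23.5% lower of all tested genes). The lists for P450 reductase, phenylalanine supply and Kelch F-box proteins stay within the range from -0.64 to 0.54.

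Downstream, the lignin branch turns coumaroyl-CoA into monolignols. Of its 36 tested genes 17 were higher (47.2%, against 22.8% of all tested genes) and 3 lower (median log2 fold change 0.61). Of all tested genes 23.5% were lower. Higher genes included 3 of 5 hydroxycinnamoyltransferases, 2 of 2 genes of the CYP98A family (coumarate 3-hydroxylation), 5 of 11 caffeoylshikimate esterases, 2 of 3 caffeoyl-CoA O-methyltransferases, 2 of 2 caffeic acid O-methyltransferases, 1 of 1 ferulate 5-hydroxylase and 2 of 9 cinnamoyl-CoA reductases. The 3 cinnamyl alcohol dehydrogenases tested did not pass (limma, adjusted p = 0.0889 to 0.352). The largest rise at 5 FPKM or more was that of the caffeoylshikimate esterase-like gene DCAR_027690.v1.0, with 8.30, 5.89 and 7.15 FPKM across WT replicates 1 to 3 against 60.62, 65.34 and 41.93 FPKM across BC replicates 1 to 3 (log2 fold change 2.80, SE 0.20, limma adjusted p = 8.46e-05). Cinnamoyl-CoA reductases, which make the first committed step to monolignols, were called in both directions. The higher ones were DCAR_025567.v1.0 (29.1 ± 3.30 to 54.98 ± 7.83 FPKM) and novel2843 (1.48 ± 0.577 to 10.6 ± 5.43 FPKM), both named after their values were seen. The 3 lower genes of the branch were all cinnamoyl-CoA reductases, DCAR_012280.v1.0 (71.2 ± 4.53 to 8.09 ± 2.19 FPKM), DCAR_025390.v1.0 (17.9 ± 0.667 to 5.07 ± 1.39 FPKM) and DCAR_021691.v1.0 (14.7 ± 0.989 to 10.2 ± 2.06 FPKM). The last did not pass in any fit without 1 sample other than BC replicate 2 (limma, adjusted p = 0.103, 0.0573 and 0.131 without WT replicates 1 to 3, 0.0938 and 0.0579 without BC replicates 1 and 3). Nor did it pass without a filter, with median-ratio size factors, quantile normalization or a replicate block (limma, adjusted p = 0.0558, 0.0687, 0.0509 and 0.0904). This gene and DCAR_025390.v1.0 were named after their values were seen. The most abundant gene of the list, cinnamoyl-CoA reductase 1-like DCAR_029957.v1.0, had means of 173 ± 27.7 FPKM in WT, 152 ± 19.5 FPKM in BC and no call.

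In the flavonoid branch 7 of 18 tested genes were higher (38.9%, against 22.8% of all tested genes). Another 2 were lower, against 23.5% of all tested genes, and the median log2 fold change was 0.39. The bifunctional dihydroflavonol reductase-like gene DCAR_017528.v1.0 rose most, from 1.77, 2.35 and 2.38 FPKM in WT to 14.21, 19.06 and 5.47 FPKM in BC (log2 fold change 1.99, SE 0.40, limma adjusted p = 0.00759). Its BC samples ranked as those of the PAL genes. The lower genes were DCAR_019460.v1.0, a putative dihydroflavonol reductase ( 9.09 ± 2.04 to 1.02 ± 1.53 FPKM) and a chalcone synthase (DCAR_000081.v1.0, 2.597 ± 0.732 to 0.477 ± 0.306 FPKM), the enzyme that opens the branch, which was named after its values were seen. A second gene described as a bifunctional dihydroflavonol reductase, DCAR_017531.v1.0, was the most abundant of the list and rose from 122 ± 12.9 to 239 ± 18.2 FPKM.

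Upstream and beside the entry steps the changes were small. Among 8 genes of phenylalanine supply 1 was higher (12.5%, against 22.8% of all tested genes) and 1 lower (against 23.5% of all tested genes). The higher one was a prephenate aminotransferase (DCAR_032171.v1.0, 15.2 ± 1.34 to 21.99 ± 4.25 FPKM), and the lower one an arogenate dehydratase (DCAR_008159.v1.0, 19.4 ± 2.04 to 14.0 ± 0.980 FPKM). The first lost its call when any sample but BC replicate 3 was left out (limma, adjusted p = 0.118, 0.0526, 0.114, 0.120 and 0.111), and the second when WT replicate 3 or either of BC replicates 1 and 2 was left out (0.0692, 0.0723 and 0.0595). With all samples kept, the first also did not pass without a filter, with equal totals, with quantile normalization or with a replicate block (limma, adjusted p = 0.0554, 0.0700, 0.0598 and 0.0530). The second did not pass with the replicate block (limma, adjusted p = 0.0505). Chorismate mutase 2 (DCAR_022859.v1.0), the most abundant of the list, had means of 19.8 ± 2.62 FPKM in WT, 29.8 ± 8.16 FPKM in BC and no call. Of 3 genes for P450 reductase, the electron donor of C4H, the most abundant (DCAR_017970.v1.0) measured 197.22, 153.47 and 190.78 FPKM across WT replicates 1 to 3, against 135.48, 129.19 and 135.47 FPKM across BC replicates 1 to 3 (log2 fold change -0.43, SE 0.11, limma adjusted p = 0.0214). Leaving out WT replicate 1, WT replicate 3, BC replicate 1 or BC replicate 2 ended this call (limma, adjusted p = 0.0665, 0.0863, 0.0624 and 0.0644).

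Regulators were listed as well. Some Kelch F-box proteins mark PAL protein for breakdown in Arabidopsis. The descriptions do not tell whether each of the 4 tested Kelch F-box genes acts on PAL. Of these 4 genes 1 was lower, DCAR_017044.v1.0. Its values were 26.92, 14.80 and 20.70 FPKM across WT replicates 1 to 3 against 12.31, 12.31 and 13.52 FPKM across BC replicates 1 to 3. It passed only narrowly (limma, adjusted p = 0.0435) and did not pass without any of WT replicates 1 and 3 and BC replicates 1 to 3 (adjusted p = 0.1002, 0.120, 0.119, 0.0991 and 0.0717, limma). With all samples kept, it did not pass without a filter, with median-ratio size factors or with a replicate block (limma, adjusted p = 0.0623, 0.0635 and 0.0612). The most abundant of them, DCAR_026307.v1.0, was at 95.6 ± 21.2 and 92.7 ± 25.8 FPKM. MYB308 and MYB330 of snapdragon act on phenylpropanoid genes. Of 7 tested MYB genes the MYB308-like DCAR_018196.v1.0 fell from 14.52, 24.25 and 17.93 FPKM to 6.08, 4.31 and 9.92 FPKM (log2 fold change -1.39, SE 0.30, limma adjusted p = 0.00945). In contrast to the PAL genes it was lowest in BC replicate 2 and highest in BC replicate 3. That order was not particular to the lower gene. It was also found in the tested genes DCAR_003738.v1.0, DCAR_020645.v1.0 and DCAR_000385.v1.0, which had higher BC means and no call. Their log2 fold changes were 1.62, 1.07 and 0.67. The BC order of the PAL genes was found in 2 of the 7 tested MYB genes. The MYB330-like DCAR_001079.v1.0 rose from 11.4 ± 2.24 to 18.9 ± 3.82 FPKM, but the call ended when either of WT replicates 1 and 2 or of BC replicates 1 and 2 was left out (limma, adjusted p = 0.0775, 0.0631, 0.0548 and 0.0626). This call also ended with a replicate block (limma, adjusted p = 0.0563). The most abundant, MYB308 gene DCAR_003163.v1.0, had means of 15.7 ± 3.44 FPKM in WT, 16.8 ± 0.890 FPKM in BC and no call.

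Markers of single root tissues were mixed in their order among BC samples. Of 20 genes listed for the periderm, the suberised outer layer, 7 were tested. Of these 3 were higher (42.9%, against 22.8% of all tested genes) and 1 lower (against 23.5% of all tested genes). The list summed to 50.4, 65.9 and 57.0 FPKM over the WT replicates, against 99.98, 119.1 and 124.5 FPKM over the BC replicates, highest in BC replicate 3. The BC order of the PAL genes was found in 1 of the 7 tested (14.3%), against 18.4% of all tested genes. The suberin genes CYP86A1 (DCAR_018964.v1.0) and glycerol-3-phosphate acyltransferase 5-like (DCAR_011721.v1.0) were at most 0.08 and 0.04 FPKM in WT. They were at 1.62, 5.24 and 0.15 FPKM and at 2.10, 4.29 and 0.19 FPKM in BC, the order of the PAL genes. Both were below the minimum for testing and were named after their values were seen. More abundant genes of the list with no call were highest in BC replicate 3. Examples are DCAR_004237.v1.0 (14.49, 17.23 and 23.92 FPKM in BC) and DCAR_011830.v1.0 (13.88, 9.49 and 20.28 FPKM in BC). A feruloyl transferase-like gene (DCAR_016372.v1.0) measured 0.00, 0.05 and 0.00 FPKM across WT replicates 1 to 3, against 6.84, 18.16 and 1.35 FPKM across BC replicates 1 to 3. It lost its call without WT replicate 3 or BC replicate 1 (limma, adjusted p = 0.0526 and 0.0591). The other higher members, DCAR_000388.v1.0 and DCAR_026998.v1.0, were highest in BC replicate 3, and the lower one was DCAR_019247.v1.0 (2.73 ± 0.252 and 1.67 ± 0.246 FPKM), whose call ended when any sample but BC replicate 3 was left out (limma, adjusted p = 0.0622 to 0.125). The call of DCAR_019247.v1.0 also ended with a replicate block (limma, adjusted p = 0.0827). Counting untested genes, 5 of the 20 had the BC order of the PAL genes, a count with no background because 18.4% refers to tested genes, while 3 had 0 FPKM in each WT sample and 5 had 0 FPKM in each BC sample.

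The 7 genes listed for xylem with secondary walls, all laccases, were below the minimum for testing. They summed to 0.42, 0.94 and 0.55 FPKM in WT and to 4.53, 7.16 and 2.03 FPKM in BC, and 3 of the 7, all untested, had the BC order of the PAL genes. Of 10 tested phloem markers 5 were lower and 0 higher by limma, against 23.5% lower of all tested genes. The list summed to 335 to 1072 FPKM in WT and 64.5 to 134 FPKM in BC. All 5 lower genes were described as phloem protein 2-like, the most abundant with means of 419 ± 247 FPKM (WT) and 40.7 ± 29.7 FPKM (BC). The sieve element occlusion genes DCAR_011272.v1.0 (1.90 ± 1.11 to 3.59 ± 2.64 FPKM) and DCAR_015068.v1.0 (2.03 ± 1.23 to 2.97 ± 2.34 FPKM) had higher BC means and no call. The part of tissue makeup in the values of the entry enzymes was not tested.

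The 10 genes with the profile nearest to the mean of the 3 PAL genes were found among 11035 tested genes with an informative description and a group mean of at least 5 FPKM. Distance was measured on log2(FPKM + 1) values centred on each gene's mean over the 6 samples, with a median of 3.52 over the genes compared. Nearest, at 0.309, was isocitrate lyase-like DCAR_019287.v1.0, an enzyme of the glyoxylate cycle, with 3.11, 4.53 and 3.95 FPKM across WT replicates 1 to 3 against 36.34, 63.05 and 11.43 FPKM across BC replicates 1 to 3. The ABC transporter G family member 42-like gene DCAR_010989.v1.0, at a distance of 0.316, measured 0.64, 0.79 and 0.39 FPKM across WT replicates 1 to 3, against 8.68, 16.45 and 3.09 FPKM across BC replicates 1 to 3. Both thus had the BC sample order of the PAL genes.

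Of the 10, 1 belonged to the listed pathway, the caffeoyl-CoA O-methyltransferase-like gene DCAR_029073.v1.0, which acts in the lignin branch. It measured 2.24, 3.66 and 1.91 FPKM across WT replicates 1 to 3, against 22.34, 33.18 and 9.53 FPKM across BC replicates 1 to 3, at a distance of 0.466. Asparagine synthetase (DCAR_005884.v1.0), which stores nitrogen in the amide of asparagine, measured 3.68, 3.33 and 3.72 FPKM across WT replicates 1 to 3, against 28.28, 44.54 and 8.11 FPKM across BC replicates 1 to 3. The others were a leucine-rich repeat receptor-like kinase (DCAR_027867.v1.0), serine carboxypeptidase-like 17 (DCAR_021948.v1.0), inositol oxygenase 1 (DCAR_012018.v1.0), a GDSL esterase/lipase (DCAR_006141.v1.0), zinc transporter 5-like (DCAR_011701.v1.0) and a gene described as stress response protein NST1-like (DCAR_016753.v1.0). Measured in the same way, the 4CL gene DCAR_021385.v1.0 lay at 0.479 and the C4H gene DCAR_018641.v1.0 at 0.624, with 6 and 14 of the compared genes nearer. DCAR_022233.v1.0 lay at 2.71 and DCAR_027611.v1.0 at 4.93. The profile includes the difference between the groups, so these genes were selected for it and no test is given.

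**Figure D5:**
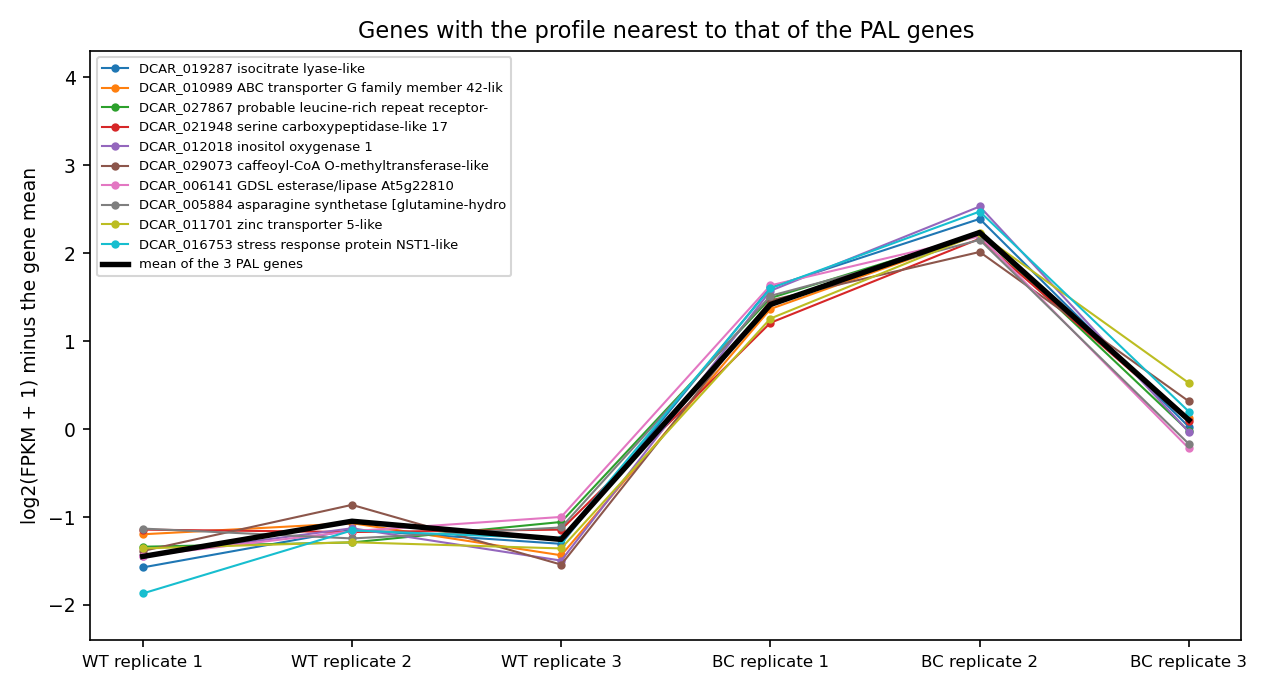
Log2(FPKM + 1) minus the mean of each gene over the 6 samples, for the mean of the 3 PAL genes (thick black line) and the 10 nearest genes (thin lines). All 10 lie low in the WT samples and are highest in BC replicate 2 and lowest, among BC samples, in BC replicate 3.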

How the data were processed

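The authors deposited 1 table of FPKM values per gene and sample, rounded to 2 decimals, with protein descriptions and KEGG entries. RSEM is named in the submitters' processing notes. Which aligner, build and gene models were used is not given in the sources used here. FPKM are not counts and RSEM can split a read between genes. Sequencing depth is therefore unknown, and counting intervals are not given. Set against WT replicate 1, the commonest ratio of low values was 1 in every other sample except BC replicate 3, where it was 1.06.

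The fit of log2(FPKM + 1), BC minus WT, used genes reaching 1 FPKM in 3 or more samples and was made with limma 3.58.1 in R 4.3.3 (lmFit, eBayes with a trend) and Benjamini-Hochberg adjustment over all tested genes. Calls required an adjusted p under 0.05. P-values measure the spread between these samples, which may be technical. The fit was also run on data simulated for this comparison (21033 genes). Log2 changes of 0.5, 1, 2 and 3, given to 50 genes each, were recovered in 12%, 50%, 80% and 96% of them. Of 20833 unchanged genes 5 were called. In the data 46.4% of genes passed, so the adjustment was less strict there and these rates do not give the sensitivity of its calls.

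The members and lists were chosen with earlier results of these data known. Lists are search words in the first NR description. Named were all members, other genes so described at 1 FPKM or more, and per list the called genes with the largest and smallest change at a group mean of 5 FPKM or more and the most abundant one. The 10 nearest profiles were added. Names come from RefSeq (assembly DH1 v3.0) through protein accessions, matched for 7 of 7 members. Alternatives were other pseudocounts, filters, scalings and limma settings, a replicate block, and leaving out each sample. Tables and plots were made in Python 3.11.15 with matplotlib 3.10.9.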

Additional observations from a re-analysis of the deposited data

How the results depend on the processing

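The median log2 fold change of the members was 2.46, 3.19 with a pseudocount of 0.1 and 1.29 with a pseudocount of 5. With a filter at 5 FPKM some members were not tested, so that median was not computed. Leaving out 1 sample at a time gave medians of 2.06 to 2.85, 6639 to 9931 called genes, 3446 to 4873 higher and 3193 to 5203 lower. For the listed pathway genes it gave 24 to 40 called, 19 to 32 higher and 5 to 8 lower, and 13 to 21 higher lignin branch genes. The replicate numbers did not pair the samples, with correlations of deviations of 0.196, -0.356 and -0.195 for numbers 1 to 3. With the replicate block 7953 genes were called, 30 of them listed pathway genes, 24 higher and 6 lower. Rescaling samples to equal totals moved the median of all genes by -0.09 and gave 25 higher and 10 lower pathway genes. Without a filter 3 of the 7 listed xylem genes were called higher, against 5070 of 27744 genes in that fit. All 7 were at 0.51 FPKM or less in every WT sample. Of 612 values of named genes that are no member, 54 lost the call and 2 gained it. No counting depth is known, which limits statements on the PAL genes in WT, all under 1 FPKM.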
